A study of Mus musculus with 2 samples.

Results

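Fibroblasts of the mouse submandibular gland were followed as cluster 3 of the 12 clusters into which the authors divided all cells, a choice made by the cluster number in the deposited tables and by no gene's difference between the conditions. The cluster held 1337 of 15605 cells, 1149 of them among 11406 ligated cells and 188 among 4199 mock cells. Both libraries came from C57BL6/J female mice aged 14 weeks. For the ligated library, the main ducts that drain the submandibular and the sublingual gland had been closed with a metal clip for 14 days. For the mock library the same ducts had been exposed without a clip, and the animals healed for the same 14 days. A pair of submandibular and sublingual glands, with the number of mice not given in the sources used here, was pooled for each library. Cells carrying EpCAM (an epithelial surface protein) or Ter119 (a red cell surface protein) and dead cells were removed, and the remaining cells were measured by droplet single-cell RNA sequencing. Each condition therefore had 1 library, no difference below has a replicate check or a test, and each describes these libraries.

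Fibroblasts make and remodel the collagen-rich matrix between the acini and ducts of a salivary gland, and they send growth factors such as FGF10 to the epithelium. In blocked or injured organs some of them switch to an activated state, with more matricellular and crosslinking proteins and, in myofibroblasts, contractile proteins. Fibroblasts of many organs also fall into an adventitial kind around vessels and ducts, marked by Pi16, Dpp4 and Cd34, and a parenchymal kind close to the epithelium.

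All values are levels: means over the cells of a cluster, in UMIs (counted RNA molecules) per 10000 UMIs counted in a cell. Whole UMI totals could be recovered for 37 mock and 232 ligated cells of the cluster. They had a median of 12821 (5569 to 36445) and 14254 (2287 to 41033) UMIs, and they favour deeper cells. A level of 3 UMIs, the upper limit that a count of 0 allows, is about 0.0124 in the mock and 0.00183 in the ligated cells. Ranges in brackets after a level are 95% Poisson intervals built from those totals. They cover counting error only, not the difference between glands, and are somewhat too narrow. Pairs of levels are given with the mock cells first. A difference, the last number in brackets after a pair, is log2((ligated + 0.1)/(mock + 0.1)), and the added 0.1 shrinks it for genes at low levels.

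The markers bore out the label. All 10 fibroblast markers, among them Dcn, Pdgfra, Cxcl14, Serpinf1 and Col1a1, stood higher in cluster 3 than in any of the other 11 clusters with both libraries together. Decorin (Dcn), a small proteoglycan that binds collagen, stood at 105 in cluster 3 and 11.9 in the next cluster, cluster 8. Pdgfra, the receptor used to mark fibroblasts, stood at 8.54 and 1.39. The highest ratios to the next cluster, with a pseudocount of 0.1, belonged to Crispld2 (10.1), the scavenger receptor Scara5 (9.79), the retinoic acid binding protein Crabp1 (9.59), the dipeptidase Dpep1 (9.24) and Dcn (8.82). Of 1604 genes with a level of at least 1 in the cluster, 404 were highest there. These levels formed the cluster and so carry no test.

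**Figure D1:**
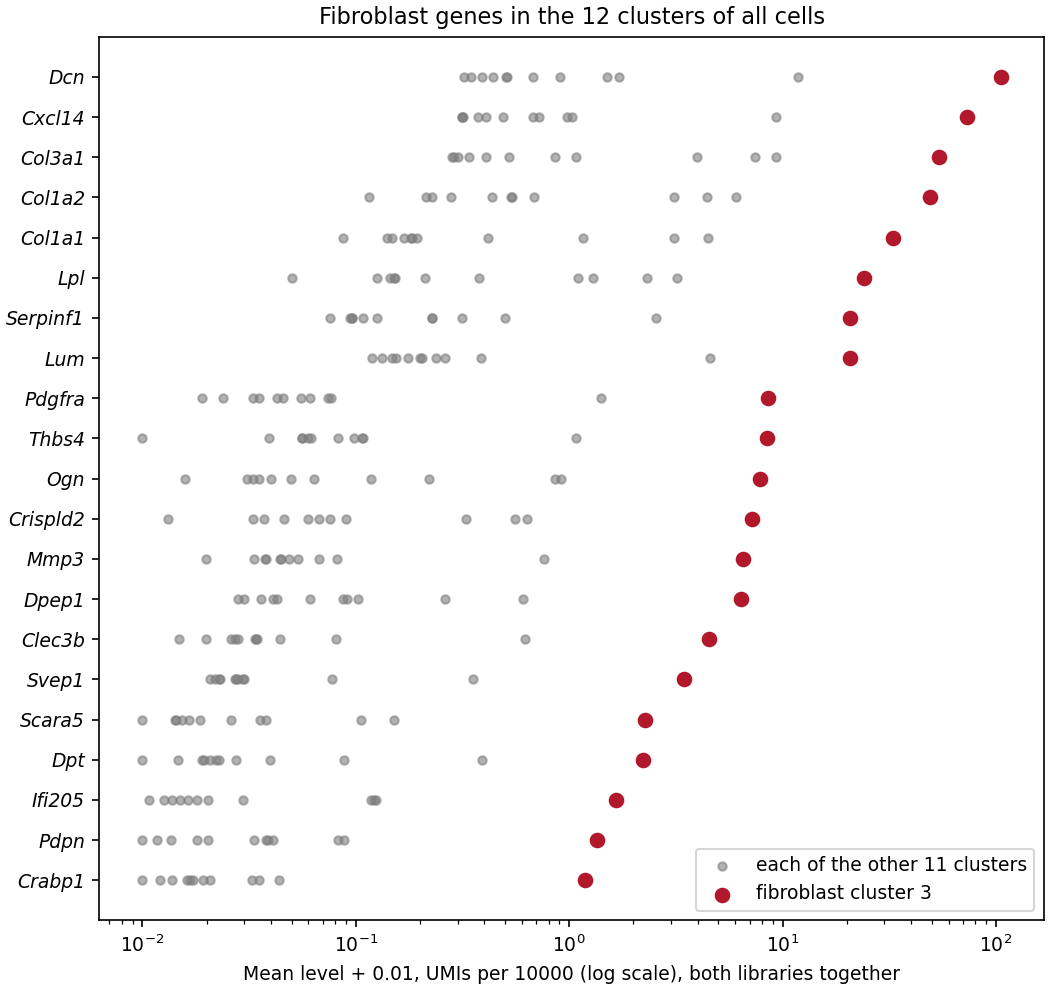
Mean level (x axis, log scale, UMIs per 10000 plus 0.01, both libraries together) of fibroblast genes (y axis) in cluster 3 (large red points) and in each of the other 11 clusters (grey points). Dcn reaches 105 in cluster 3, and for each gene drawn the red point lies to the right of the grey ones.

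Markers of other cells were low in the cluster but not 0, and for most types they were higher in the ligated cells. The 10 macrophage markers summed to 0.493 in the mock and 5.32 in the ligated cells, with Cd68 and Adgre1 at 0 in the mock cells and all 10 above 0 in the ligated cells. The 10 natural killer markers summed to 0.528 and 3.27 and the 10 T cell markers to 2.11 and 2.80. Thy1 made up most of the T cell sums and differed by -0.23, and the other 9 were higher in the ligated cells. The 10 endothelial markers summed to 5.50 and 6.39 and the 10 mural markers to 2.84 and 4.52. The 9 acinar markers with a value summed to 8.32 and 0.644, a fall carried by Dcpp1, Dcpp2 and Dcpp3: 4 of the 9 were higher in the ligated cells, among them Prol1 (0.240 and 0.539). The acinar transcription factor Bhlha15 was at 0 in both, and Aqp5, Smgc and Muc19 in the mock cells. The 10 ductal markers summed to 0.477 and 1.59, with Epcam, Krt5 and Krt14 at 0 in the mock cells. Schwann markers summed to 4.53 and 3.36 (Sox10 at 0 in the mock cells), and the 10 fibroblast markers to 426 and 361. Pmp22 made up most of the Schwann sums and differed by -0.46, while 6 of the 8 Schwann markers were higher in the ligated cells. The 6 lymphatic endothelial markers summed to 1.44 and 1.60, most of it Pdpn (1.40 and 1.34), and the other 5 were higher in the ligated cells. B cell, neutrophil, myoepithelial and cycling markers stayed under 0.5 in both. Erythroid markers summed to 0.903 and 0.576. The part of free RNA or of other cells in a difference was not tested, and the affected genes are given with their library means below.

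Fibroblasts took a larger share of the ligated library. They were 10.1% of its cells (9.53 to 10.6, exact Clopper-Pearson 95% interval, counting error only) and 4.48% of the mock cells (3.87 to 5.15). Over the same libraries the mural-like cluster 6 held 420 ligated and 161 mock cells and the endothelial-like cluster 0 held 2948 and 2363. A share of what remains after bead depletion says nothing on the number of fibroblasts per gland, and gain of fibroblasts and loss of other cells cannot be told apart.

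Within the cluster most genes kept similar levels. The size rule asked for a level of at least 0.5 in 1 of the libraries and a difference of at least 1 in either direction. Of 3718 genes with such a level, and above 0 in some cluster of both libraries, 296 passed (7.96%), 124 of them higher (3.34%) and 172 lower (4.63%) in the ligated cells, and the median difference was -0.063. These shares belong beside the counts of every gene list below, and with few genes counted 0 higher is not a lean by itself. How many pass depends on the cutoffs: at a difference of at least 2 there were 49 higher and 32 lower genes, at a pseudocount of 1 only 30 and 44, and at a level of at least 2 there were 31 and 69. Of the higher genes 60, and of the lower genes 128, passed in the same direction in none of the 8 other clusters with at least 50 cells per library, but 16 of the higher genes did so in all 8. A gene under 0.5 in both libraries of another cluster could not pass there. Genes found mainly in fibroblasts are thus among the 60 and 128 by the rule itself. In the fibroblast-like cluster 0 of the authors' subset named after Pdgfra, Pdgfrb and Gli1 (949 ligated and 167 mock cells, largely the same cells), 278 of the 296 differed by at least 1 in the same direction. With a pseudocount of 1 the following genes of the report no longer reached a difference of 1: Pi16, Ccn5, Ccn4, Runx1, Lox, Pcolce2, Fbn2, Emilin2, Ltbp4, Fmod, Omd, Prg4, Gpc3, Nid2, Lamc1, Serpine2, Mmp2, Fn1, Sema3c, Cd55, Ackr3, Myoc, Pdgfrl, Gdf10, Rspo3, Rspo1, Fzd4, Igfbp5, Epha3, Cxcl10, C1qa, C1qb, Masp1, C4b, Isg15, Irf7, H2-Aa, H2-Ab1, H2-Eb1, Timm23, Gm42418, Fkbp5, Zbtb16, Dusp1, Klf4, Cebpd, Abca8a, Ebf1, Ebf2, Osr1, Gstm1, Cat, Adm and Cdkn1a.

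**Figure D2:**
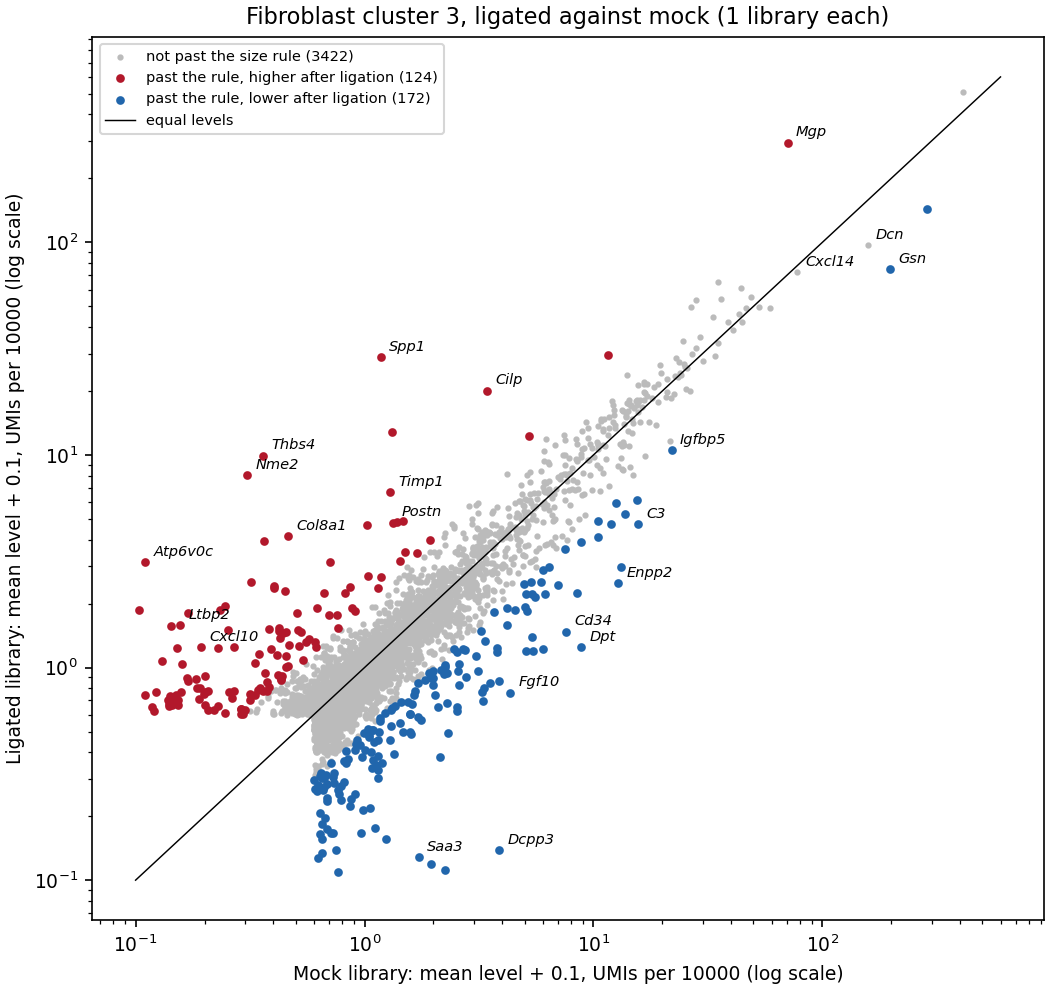
Level of each of 3718 genes in the mock cells (x axis) and in the ligated cells (y axis) of fibroblast cluster 3, in UMIs per 10000 plus 0.1 on log scales, with 1 library each and the line of equal levels. Thbs4, Spp1 and Mgp lie far above the line, Gsn, Dpt and Fgf10 below it, and Cxcl14 close to it.

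Matricellular proteins, which sit in the matrix and tune how cells respond to it rather than bear load, made up several of the largest rises. Thrombospondin 4 (Thbs4) stood at 0.261 (0.199 to 0.336) in the mock and 9.83 (9.66 to 9.99) in the ligated cells, a 37.6-fold higher level (4.78). The cluster held 56.2% of the mock and 91.8% of the ligated library's Thbs4, and in mural-like cluster 6 the gene was listed at 0 and 0.134. Osteopontin (Spp1), a secreted ligand of integrins and CD44, stood at 1.08 (0.948 to 1.22) and 28.8 (28.5 to 29.0), 26.7-fold higher (4.61), with 87.2% of the ligated library's Spp1 in these cells. Spp1 shares exon sequence on its strand with Gm42793. Both genes were low in the mock and high in the ligated cells, and the intervals do not overlap. Periostin (Postn), which promotes collagen crosslinking, stood at 1.23 in the mock and 4.70 in the ligated library (1.85), Ccn5 at 0.407 and 1.70 (1.83) and Ccn4, a Wnt-responsive member of the same CCN family, at 0.246 and 1.06 (1.75). The list of 19 matricellular genes had 15 that could be counted, of which these 5 were higher (against 3.34% of all genes counted) and 2 lower, Tnxb (3.44 and 0.744, -2.07) and Spon2 (3.23 and 0.698, -2.06). Its median difference was 0.53, against -0.043 over 10343 genes with a mean of both levels of at least 0.05. The list was chosen with earlier results of these data known, so these shares describe it and are no independent support. Thbs4, Spp1 and Postn also belong to the activated fibroblast list below. Ccn2, the family member best known from fibrosis, stood at 2.57 and 3.34 (0.36), and Sparc, which binds collagen, with 35 and 64.7 (0.88), was short of the rule.

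The largest rise in level belonged to matrix Gla protein (Mgp), an inhibitor of calcification and of BMP signalling. It stood at 70.4 (69.3 to 71.5) in the mock and 294 (294 to 295) in the ligated cells (2.06). Cilp, a matrix protein of cartilage that binds TGF-beta, stood at 3.32 in the mock and 20.0 in the ligated library (2.55), and Col8a1, a short-chain collagen of vessel walls, at 0.362 and 4.05 (3.17). Timp1, an inhibitor of matrix metalloproteinases, stood at 1.20 and 6.58 (2.37), and Ltbp2, a microfibril protein related to the binding proteins of latent TGF-beta, at 0.0570 and 1.48 (3.33). Most of the ligated library's RNA of these genes lay in fibroblasts, which were 10.1% of its cells: the ligated cells of cluster 3 held 86.4% of the ligated library's Mgp, 88.4% of its Cilp, 62.9% of its Col8a1 and 84.1% of its Timp1. Of the other genes with large rises in level, Bgn (biglycan) stood at 26.6 and 49.5 (0.89), Igfbp7 at 28.0 and 53.5 (0.93), Apod at 36.2 and 54.3 (0.58) and Cst3, a cysteine protease inhibitor, at 11.5 and 29.3 (1.34).

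**Figure D3:**
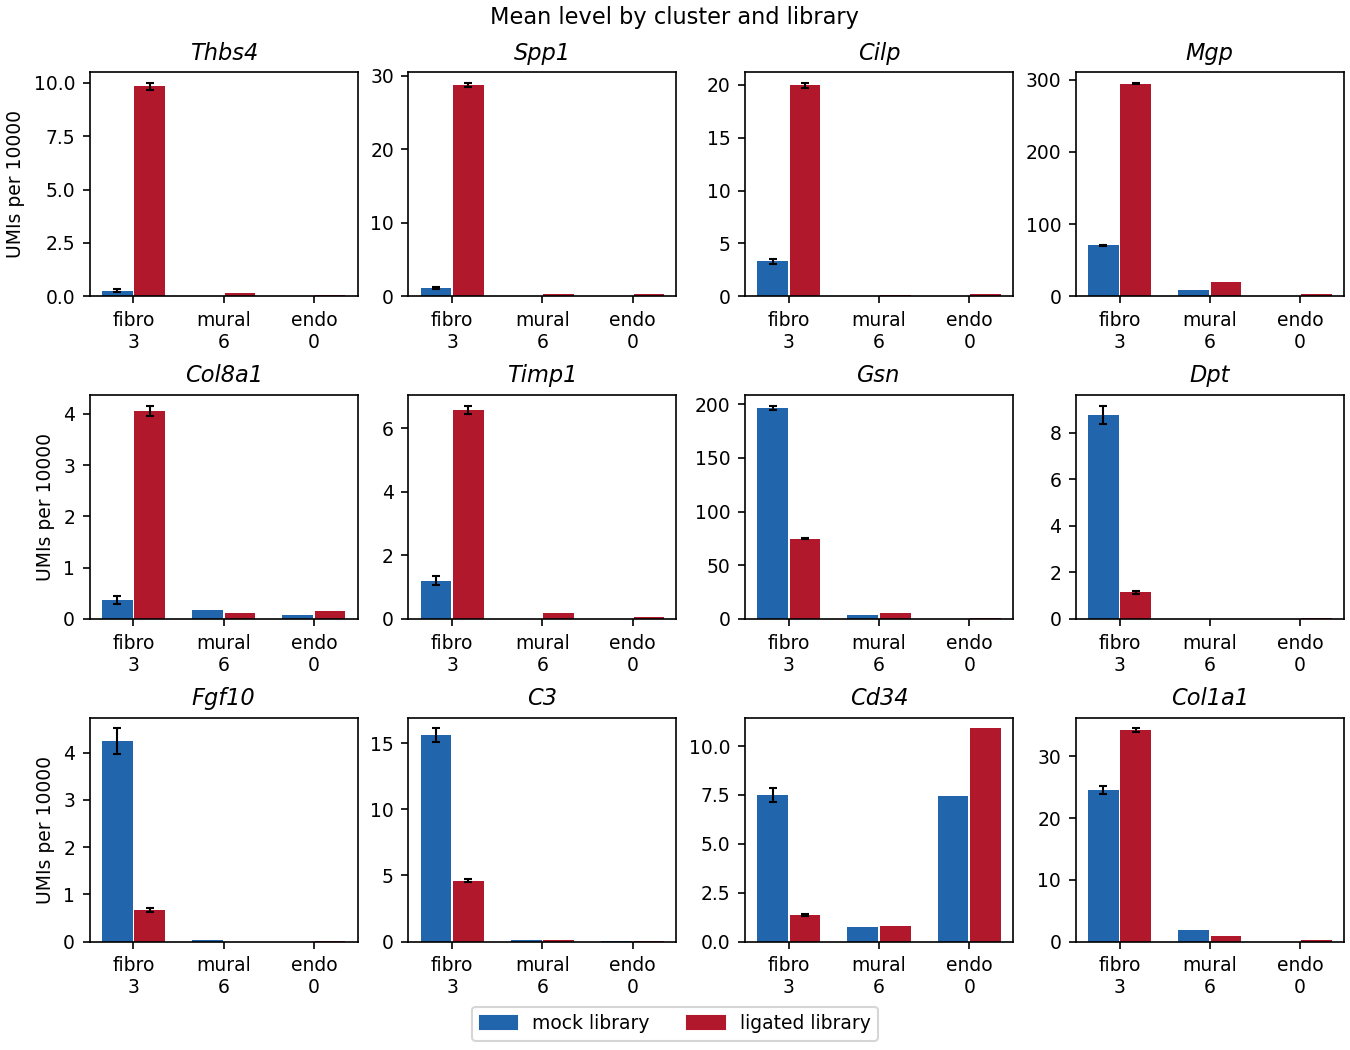
Mean level (y axis, UMIs per 10000, each panel with its own scale from 0) of 12 genes in fibroblast cluster 3, mural-like cluster 6 and endothelial-like cluster 0, mock library in blue and ligated library in red. Error bars on cluster 3 are 95% Poisson intervals of counting error, 1 library each. Thbs4 and Spp1 are near 0 in the mock cells of cluster 3, while Fgf10 and Dpt stand several-fold lower in its ligated cells.

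Runx1, a transcription factor tied to activated fibroblasts, was the only higher gene of 17 counted in the list of 30 fibroblast transcription factors (0.354 and 1.04, 1.33), and Runx2 stood at 0.300 in the mock and 0.524 in the ligated library (0.64). RUNX proteins bind the letters TGTGGT, or ACCACA on the other strand. Of the 15 largest rises 12 had a RefSeq promoter (GRCm38.p6), and 3 of them held these letters in the 250 bases before the start on either strand (Spp1, Gzmc and Col8a1), as did 1 of 12 among the 15 largest falls. Over all genes with such a promoter the share was 15.9% (4303 of 27025), and counted by promoters it was 18.8% (3 of 16) for the rises and 14.0% (4614 of 32851) for all. A match describes letters and is not a binding site, and a link to Runx1 was not tested. Gzmc, 1 of the 3, also passed as a rise in all 8 other clusters compared. The windows of the 2 matrix genes are shown with the match in capitals, 128 bases before the start for Spp1 at chr5:104434861-104435110 (plus strand) and 230 bases before it for Col8a1 at chr16:57754738-57754987 (minus strand), each written 5′ to 3′ along the gene.
Spp1: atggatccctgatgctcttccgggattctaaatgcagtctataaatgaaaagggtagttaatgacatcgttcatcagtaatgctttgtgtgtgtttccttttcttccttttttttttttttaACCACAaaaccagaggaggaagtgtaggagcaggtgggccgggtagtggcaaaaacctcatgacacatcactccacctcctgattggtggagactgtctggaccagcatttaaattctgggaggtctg
Col8a1: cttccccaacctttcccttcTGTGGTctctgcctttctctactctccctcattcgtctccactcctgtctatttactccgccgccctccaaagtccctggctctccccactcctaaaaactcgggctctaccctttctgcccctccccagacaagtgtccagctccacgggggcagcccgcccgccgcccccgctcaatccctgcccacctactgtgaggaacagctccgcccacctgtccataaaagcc

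RNA levels of the main fibrillar collagens, as means per fibroblast, differed by less than the rule asks. Col1a1 stood at 24.5 (23.8 to 25.1) and 34.2 (33.9 to 34.5), a difference of 0.48, Col1a2 at 46.2 in the mock and 49.2 in the ligated library (0.091) and Col3a1 at 48.6 and 54.9 (0.18). None of 7 counted fibrillar collagen genes passed in either direction, of 11 listed, against 7.96% of all genes counted, and the list median was 0.12. Among 12 counted of 20 other collagens Col8a1 was higher and Col18a1, the source of endostatin, lower (2.21 and 0.392, -2.23), with a median of -0.023. The crosslinking enzyme Lox was higher (1.41 and 3.39, 1.21) and Pcolce2 lower (0.807 and 0.154, -1.83) among 17 of 21 genes of collagen processing (median -0.21), while Loxl1 stood at 5.21 and 8.17 (0.64) and the collagen chaperone Serpinh1 at 13.0 and 11.2 (-0.21).

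Other matrix groups split in both directions. Of the 17 elastic fibre genes, all counted, Ltbp2 and Fbn2 (0.169 and 1.15, 2.22) were higher, and Emilin2, Fbln2, Efemp1 and Ltbp4 lower (-1.56, -1.53, -1.47 and -1.23), around a median of 0.095. Elastin itself (Eln) stood at 6.21 in the mock and 6.64 in the ligated library (0.095). Among 17 of 22 proteoglycan and hyaluronan genes the collagen-binding Fmod and Omd were higher (1.92 and 1.16) and Prg4 and Gpc3 lower (-1.63 and -1.61), with a list median of -0.32. The list of 15 basement membrane genes had a median of -0.64. Of 13 counted, 0 were higher and 3 lower: Col18a1, Nid2 (-1.05) and Lamc1 (-1.01). Over all genes counted 3.34% were higher and 4.63% lower. Of 23 counted proteases and inhibitors, out of 27, Timp1 and the serpin Serpine2 (1.03) were among 3 higher genes, and Mmp2, a gelatinase (12.4 and 5.82, -1.08), and Mmp19 (-1.65) lower, with a list median of -0.22. Both lower genes were metalloproteinases, and the inhibitor Timp2 stood at 14.7 and 7.91 (-0.89).

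The contractile genes Acta2 and Tagln were higher in the ligated cells but stayed at low levels, and the tropomyosin genes did not pass. Smooth muscle actin (Acta2) stood at 0.0718 (0.0413 to 0.116) and 0.304 (0.276 to 0.334) and Tagln at 0.0389 (0.0176 to 0.0742) and 0.396 (0.364 to 0.430), differences of 1.23 and 1.84 with intervals that do not overlap. All these levels were below the 0.5 needed to be counted, against 20.8 and 13.3 in the ligated cells of mural-like cluster 6. Tpm1 differed by 0.75, while Tpm2 leaned the other way, at 0.636 in the mock and 0.558 in the ligated cells (-0.16). The 10 mural markers, Acta2 among them, summed to 2.84 and 4.52 in the fibroblasts, and the part of mural RNA was not tested. Tnc, Cthrc1 and Lrrc15, markers of matrix-making activated fibroblasts, were also under 0.5 in both libraries. Among the 20 genes of the myofibroblast and activated fibroblast list 11 could be counted: Thbs4, Spp1, Col8a1, Postn and Runx1 were higher, fibronectin (Fn1) was lower (3.11 and 1.39, -1.11), and 5 did not pass, Fap at 1.75 in the mock and 1.36 in the ligated library (-0.34) among them. The list median was 0.75.

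**Figure D4:**
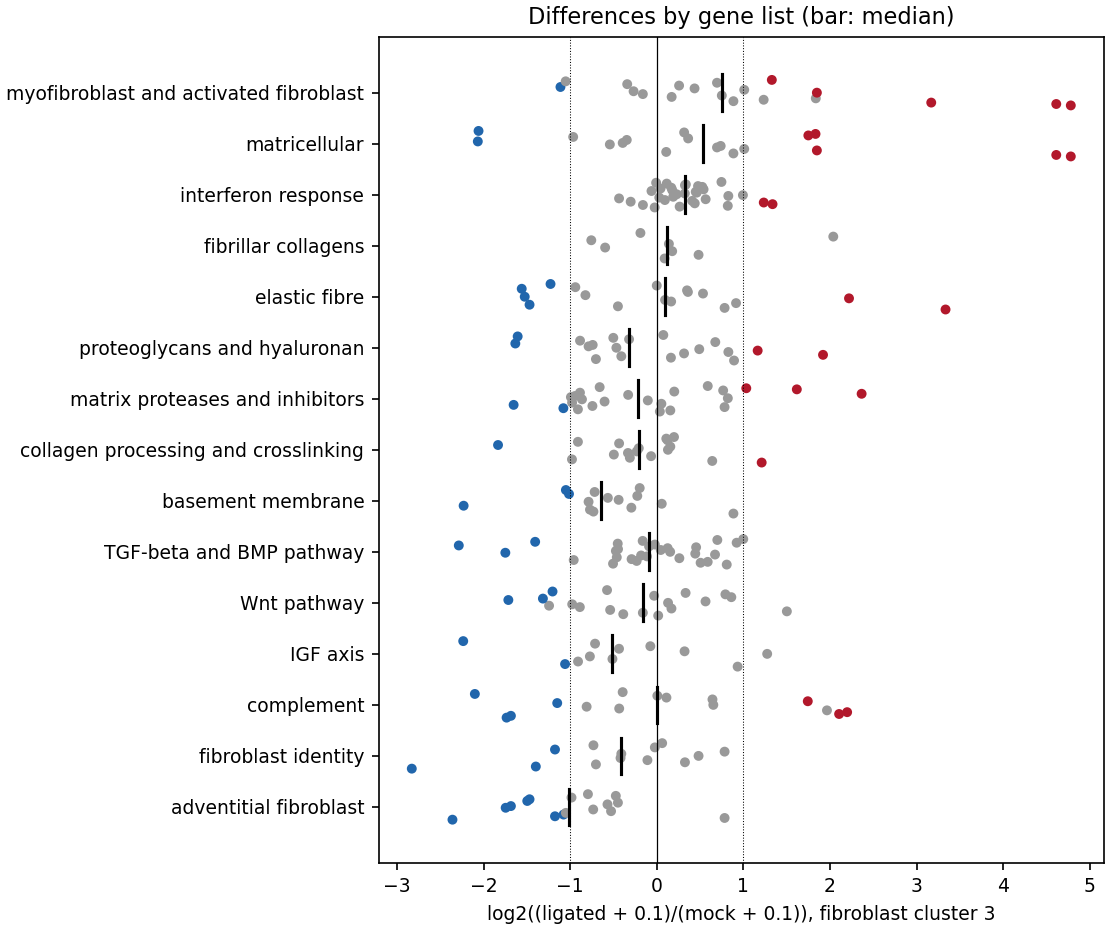
Difference of each gene with a mean level of at least 0.05 (x axis, log2 of ligated over mock with a pseudocount of 0.1) in fibroblast cluster 3, for 15 gene lists (y axis). Red and blue points are past the size rule, grey points are not (those beyond the dotted lines at a difference of 1 have levels under 0.5), and black bars are list medians. The medians run from -1.02 for adventitial genes to 0.75 for the activated list.

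Several identity genes and adventitial genes were lower. Gelsolin (Gsn), an actin-severing protein from the identity list, stood at 197 (195 to 199) in the mock and 74.7 (74.2 to 75.1) in the ligated cells (-1.40), the second largest fall in level. Dermatopontin (Dpt), of the same list, a matrix protein used to mark a fibroblast stem-like state, stood at 8.77 (8.39 to 9.16) and 1.15 (1.09 to 1.20), 7.64-fold lower (-2.83). Cd34, of the adventitial list, a sialomucin of such fibroblasts and of endothelium, stood at 7.47 (7.12 to 7.84) and 1.38 (1.31 to 1.44), a difference of -2.36. In endothelial-like cluster 0 Cd34 stood at 7.43 and 10.9, higher in the ligated cells. Of 16 adventitial genes 14 could be counted, of which 0 were higher and 7 lower: besides Cd34 these were Sema3c (-1.75), the complement regulator Cd55 (-1.68), the chemokine scavenger Ackr3 (-1.50), Efemp1 (5.02 and 1.75, -1.47), Clec3b (8.71 and 3.80, -1.18) and Pi16. Over all genes counted 4.63% were lower. The list median was -1.02.

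The adventitial group was not uniform. Pi16, its best-known marker, stood at 5.22 (4.92 to 5.52) and 2.42 (2.34 to 2.50), a difference of -1.08, but in the fibroblast-like cluster of the subset it stood at 1.84 and 2.13 (0.20), so its direction depended on which cells were averaged. Dpp4 stood at 0.388 in the mock and 0.136 in the ligated library (-1.05), under the level needed to be counted, and Mfap5 was higher without passing (5.98 and 10.4, 0.78). The 13 parenchymal fibroblast genes had 10 that could be counted and none that passed, with a median of -0.096: Smoc2 stood at 7.48 and 8.08 (0.11) and Hsd11b1 at 4.80 and 5.72 (0.25). In the identity list 12 of 14 genes were counted, and Dpt, Gsn and Clec3b were the 3 lower genes with 0 higher (median -0.41). Dcn, with 158 and 96.7, had a large fall in level but a difference of -0.70, Lum stood at 26.4 and 19.8 (-0.41), and Cxcl14 and Serpinf1 differed by -0.11 and 0.33. Cluster means do not tell a smaller share of adventitial cells from less RNA per cell. Of 8 perineurial and nerve-sheath genes none reached the level needed.

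Genes found almost only in this cluster gave further large falls. Angptl1, an angiopoietin-like secreted protein with 98.1% of its mock library level in cluster 3, stood at 1.14 (1.00 to 1.29) and 0.0564 (0.0447 to 0.0703), a difference of -2.99. The aldehyde oxidase Aox3 stood at 2.04 in the mock and 0.281 in the ligated library (-2.49), myocilin (Myoc) at 1.01 and 0.0766 (-2.65) and the interferon-inducible Ifi205 at 4.96 and 1.10 (-2.07). The ligated level was several-fold below the mock level in each. Scara5 and Dpep1, 2 of the genes that set the cluster apart, stood at 4.91 and 1.83 (-1.38) and 13.6 and 5.15 (-1.39), while Crispld2 stood at 10.6 and 6.65 (-0.66), Svep1 at 2.14 and 3.66 (0.75) and podoplanin (Pdpn) at 1.40 and 1.34 (-0.061). The genes that define the cluster thus did not move as a block.

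Most growth factor and receptor genes that could be counted did not pass the rule. Fgf10, the mesenchymal ligand of FGFR2b required for salivary gland development, stood at 4.24 (3.98 to 4.52) in the mock and 0.662 (0.621 to 0.706) in the ligated cells, 6.4-fold lower (-2.51). It passed in no other cluster, but a gene under 0.5 in a cluster cannot pass there. Fgf7, its close relative, stood at 0.699 in the mock and 0.649 in the ligated library (-0.094). In the list of 27 growth factors and receptors 11 were counted, with Fgf10 lower and Pdgfrl higher (0.521 and 1.80, 1.61) and a median of -0.14. Pdgfra stood at 10.9 and 8.14 (-0.42) and Pdgfrb at 2.14 and 4.18 (0.94), so the paired receptors leaned in opposite directions without passing.

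In the TGF-beta and BMP pathway the genes that passed were secreted factors, all lower. The activin antagonist follistatin (Fst) stood at 5.90 (5.59 to 6.22) and 1.13 (1.07 to 1.19), a difference of -2.29, the ligand Bmp4 at 2.19 in the mock and 0.581 in the ligated library (-1.75) and Gdf10 at 0.966 and 0.303 (-1.40). These were 3 of 20 counted genes of 31 listed, with 0 higher and a list median of -0.089, against 4.63% lower and 3.34% higher of all genes counted. Among the TGF-beta ligands Tgfb1 stood at 0.603 and 1.13 (0.81), Tgfb2 at 1.35 and 0.919 (-0.51) and Tgfb3 at 0.558 and 0.834 (0.51). The BMP target Id3 stood at 2.77 and 5.64 (1.00), just short of a difference of 1.

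Wnt and hedgehog genes gave few values above the level needed. Rspo3 and Rspo1, which amplify Wnt signals, stood at 2.49 in the mock and 0.940 in the ligated library (-1.32) and 0.686 and 0.139 (-1.71). The receptor Fzd4 stood at 0.638 and 0.220 (-1.20). Of 25 Wnt genes 9 were counted, these 3 lower and 0 higher, with a median of -0.16. For this and the next lists, 4.63% of all genes counted were lower and 3.34% higher. Of 14 hedgehog genes 4 were counted and Gas1, a co-receptor, was lower (11.9 and 4.65, -1.33), with a median of -0.39. Gli1 (0.0479 and 0.0294) and Ptch1 (0.133 and 0.140), the usual targets of the pathway, were too low to compare. In the IGF axis 10 of 12 genes were counted, with Igfbp5 (21.9 and 10.4, -1.06) and Pappa, a protease that frees IGF from its binding proteins (3.20 and 0.600, -2.24), lower and 0 higher (median -0.51). Igf1 stood at 6.73 and 3.53 (-0.91). Igfbp5 missed the rule in the subset cluster (-0.92). Of 21 genes of epithelial niche and axon guidance 11 were counted: Epha3 was higher (1.12) and Fgf10 and Sema3c lower, with a median of -0.45.

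Innate immune genes of fibroblasts moved both ways. Complement C3, the central component of the cascade, stood at 15.6 (15.1 to 16.1) and 4.62 (4.50 to 4.73), a difference of -1.73, while factor B (Cfb), which works with C3 in the alternative pathway, stood at 0.567 in the mock and 2.14 in the ligated library (1.74). Saa3, an acute-phase protein, was among the largest falls (1.63 and 0.0284, -3.75). Ccl11 (eotaxin) stood at 8.36 (7.99 to 8.75) and 2.14 (2.07 to 2.22), a difference of -1.92, and in mural-like cluster 6 at 8.36 and 1.87, so it was lower in both. Il34, a ligand of the CSF1 receptor on macrophages, stood at 0.348 and 2.19 (2.35), and Cxcl10, an interferon-induced chemokine of T and natural killer cells, at 0.0930 and 1.15 (2.70). These 2 higher and 2 lower genes (Saa3 and Ccl11) were the ones that passed among 17 counted of 31 cytokine and chemokine genes, whose median was -0.15. Csf1, the other ligand of that receptor, stood at 1.20 and 1.01 (-0.23), Ccl2 at 0.544 and 1.02 (0.80), Cxcl12 at 7.998 and 4.38 (-0.85) and Il33 at 4.06 and 2.39 (-0.74).

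Of 19 complement genes 13 were counted. Cfb, C1qa and C1qb were higher, and C3, Masp1 (-2.10), Cd55 and C4b (-1.15) lower, with a list median of 0.0063. C1qa (0.0864 and 0.702) and C1qb (0.0537 and 0.606) are macrophage markers and moved with the summed macrophage markers given above, of which they are part. After subtraction of the mean library profile described below they were left at 0.256 and 0.227 in the ligated cells, under the level needed. In the interferon list 23 of 32 genes were counted, Isg15 (0.603 and 1.68, 1.34) and Irf7 (0.457 and 1.21, 1.24) were higher and 0 lower, and the median was 0.32. The share past the rule, 8.70%, was near the 7.96% of all genes counted. Of those 23 genes 18 had a positive difference, against 1626 of all 3718 genes counted. Most of the 18 were short of the rule: Ifitm3 stood at 22.8 in the mock and 28.6 in the ligated library (0.32).

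Class II antigen presentation genes were higher in the means, together with the leukocyte markers. Cd74, the class II invariant chain, stood at 0.0691 in the mock and 1.70 in the ligated library (3.41), H2-Aa at 0.0231 and 0.663 (2.63), H2-Ab1 at 0.0406 and 0.560 (2.23) and H2-Eb1 at 0.0533 and 0.567 (2.12), 4 higher and 0 lower of 10 counted among 15 genes (median 0.53). The ligated value of Cd74 was 14.1% of the mean over all cells of that library, close to the 15.2% median of the macrophage markers. Ccl5 (0.266 and 3.85), Fcer1g (0.133 and 1.77) and Gzmc (0.0433 and 1.47) likewise stood at 9.80%, 11.2% and 8.49% of their ligated library means. When a share of each library's mean profile was subtracted (3.79% in the mock and 9.62% in the ligated cells, the median for markers of other cells), the difference of Gzmc became 0 and that of Ccl5 0.77, under the rule. Cd74 kept 2.68, but H2-Aa, H2-Ab1, H2-Eb1 and Fcer1g were left at 0.291, 0.248, 0.245 and 0.245 in the ligated cells, under the 0.5 needed, so 1 of the 4 class II calls remained. The share came from marker levels in this same cluster, with Fcer1g, C1qa and C1qb among the markers. The subtraction therefore cannot tell where this RNA came from, which was not tested.

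The 3 largest falls were of a salivary gene family. Dcpp3, Dcpp1 and Dcpp2 encode secreted proteins of acinar cells. They stood at 3.78 in the mock and 0.0380 in the ligated library (-4.81), 2.15 and 0.0113 (-4.34) and 1.86 and 0.0188 (-4.04). Dcpp3 had means over all cells of 3.81 in the mock and 0.0604 in the ligated library, so the fibroblasts' mock value was 99.3% of the mean over all cells. Such a mean does not show whether the RNA lay evenly over the cells or in a few of them. The median for markers of other cells was 3.79% in the mock cells. After the subtraction described above Dcpp3 stood at 3.64 in the mock and 0.0322 in the ligated cells (-4.82). Taking 3.79% of a mean of 3.81 from a level of 3.78 could hardly change it. The subtraction therefore cannot tell where this RNA came from. Dcpp1 and Dcpp2 share exon sequence, and their reads may be divided between them. Of the other acinar markers Bpifa2 stood at 0.291 and 0.00561 and Prol1 at 0.240 and 0.539, and the source of these values was not tested.

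Several of the largest rises were common to all clusters. Atp6v0c, Nme2, Rnasek, Rpl13a, Tomm6, Ccdc85b, Timm23 and Gzmc, 8 of the 15 largest, passed in the same direction in all 8 other clusters compared. Atp6v0c, a proton pump subunit, stood at 0.00993 in the mock and 3.03 in the ligated library (4.83), with differences of 3.16 to 5.47 elsewhere. Its mock level, like that of Rnasek, was under the 0.0124 of 3 UMIs, so its difference has no fixed size. Nme2 (0.207 and 7.91), like Rpl13a, Timm23, Cd74, Cfb and AY036118, shares exon sequence on its strand with another gene, here Gm20390, Rnasek (0.00313 and 1.77) with Gm21988 and Tomm6 (0.146 and 1.86) with Gm21981. Genes that share exon sequence with another gene made up 13.5% of those past the rule (40 of 296) and 9.69% of those counted (360 of 3717), and without them 99 higher and 157 lower genes remained. The libraries also differ in the symbols listed: 684 were listed only in the mock and 3150 only in the ligated library, and these were left out, apart from old and current names of 1 gene. Of the largest falls in level, Gm42418 (286 and 143) and AY036118 (13.1 and 2.87, -2.14) were also lower past the rule in 4 and in all 8 of the other clusters. Of the 15 largest falls 12 passed in the same direction in no other cluster. A gene under 0.5 in both libraries of a cluster cannot pass there, so this count does not show that a fall is particular to fibroblasts.

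Retinoid and glucocorticoid genes leaned lower. Crabp1 stood at 3.75 (3.51 to 4.01) and 0.761 (0.716 to 0.808), a difference of -2.16. Tsc22d3 and Fkbp5, classical glucocorticoid targets, stood at 2.67 in the mock and 0.802 in the ligated library (-1.62) and 0.994 and 0.408 (-1.11). These were the 3 lower of 9 counted genes of 19, beside 1 higher, with a list median of -0.69. Zbtb16, another glucocorticoid-induced gene, was among the largest falls (0.654 and 0.0379, -2.45), and it was also lower past the rule in 3 other clusters. Nr3c1, the glucocorticoid receptor, stood at 3.02 and 2.22 (-0.43). Of 23 immediate early and dissociation genes 15 were counted, with Dusp1 (-1.68) and Klf4 (-1.45) lower and 0 higher (median -0.24). Fos stood at 2.59 and 1.83 (-0.48) and Jun at 4.69 and 4.30 (-0.12).

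Lipid genes and transcription factors followed the same lean. Plpp3, a lipid phosphatase (15.4 and 6.01, -1.34), Cebpd (-1.29) and Abca8a (-1.06) were lower and 0 higher of 9 counted lipid and adipogenic genes of 18 (median -0.42). Over all genes counted 4.63% were lower and 3.34% higher. Lipoprotein lipase (Lpl) stood at 23.7 in the mock and 24.2 in the ligated library (0.03). Enpp2 (autotaxin), which makes lysophosphatidic acid, the substrate of Plpp3, stood at 12.7 (12.3 to 13.2) and 2.40 (2.32 to 2.48), a difference of -2.36. Besides Runx1, the factors that passed were Klf4, Ebf1 (5.91 and 2.79, -1.06), Ebf2 (-1.16) and Osr1 (-1.05), all lower, and the median of that list was -0.23. Ebf1 missed the rule in the subset cluster (-0.89), and Prrx1 and Twist1, general factors of fibroblasts, stood at 5.53 and 4.85 (-0.19) and 1.67 and 1.36 (-0.27).

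Housekeeping groups passed the rule at shares on both sides of the 7.96% of all genes counted. The shares were 0% for the secretory pathway and 12.5% for oxidative stress. They were 10% for hypoxia and 25% for the cell cycle, each of few genes. Among 16 counted genes of the secretory pathway and unfolded protein response, of 18, none passed (median -0.16), with Hspa5 at 5.01 in the mock and 7.91 in the ligated library (0.65). Gstm1 (-1.19) and Cat (-1.09) were lower and 0 higher of 16 counted genes of oxidative stress and detoxification, of 19 (median -0.32). Adm (-1.11) was the lower one of 10 counted of 16 hypoxia and glycolysis genes, with 0 higher (median -0.095). Of 19 cell cycle genes 4 were counted, Cdkn1a, an inhibitor of cyclin-dependent kinases, was lower (-1.22) and 0 higher (median 0.20), and Mki67 stood at 0.00970 and 0.0153.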

How the data were processed

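Cell Ranger 6.0.1, Seurat and build mm10 are named, without their role, per the submitters' processing notes. Cell filters, doublet removal and clustering are not given in the sources used here. The deposited values (unit other) are the authors' linear cluster means of UMIs per 10000 UMIs of the cell: every column sums to 10000. Of 20140 symbols 21 stood as dates and were restored from row order, and 159 pairs of old and current symbols were joined, leaving 16455 genes above 0 in both libraries. Cell numbers were recovered from the joint and split means, within tolerances of 2e-09 for the weight and 1e-06 for whole UMI totals, by a procedure tested on simulated data. With 1 library per condition no test was run. A gene is past the size rule at a higher level of at least 0.5 and a difference of at least 1 (pseudocount 0.1).

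Genes are named where they belong to the 31 gene lists or 15 marker lists, rank in the top 15 differences past the rule in either direction, in the top 10 by change in level, or in the top 15 by ratio to the next cluster. The members and lists were chosen with earlier results of these data known. Other genes named in the closing observations were chosen after their values were seen. List medians use genes with a mean of at least 0.05. Exon sharing was read from GENCODE on the same strand and promoters from RefSeq. Alternatives were other pseudocounts, cutoffs, symbols, centring, subtraction of the mean profile, the subset cluster and, added after seeing the data, leaving out genes that share exons. Tcf21, Grem1, Shh, Rspo2, Cfd, Adipoq, Car3, Retn, Ero1a, Col2a1 and Leprel2 were not analysed here, and results for a few list genes are not reported here. Versions were Python 3.11.15, numpy 2.4.6, pandas 2.3.3, scipy 1.17.1 and matplotlib 3.10.9.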

Additional observations from a re-analysis of the deposited data

Results flagged for a closer look

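A pair of genes that were lower in the ligated fibroblasts were higher past the same size rule in another cluster, and whether these differences differ from each other was not tested. Cd34, at -2.36 in the fibroblasts, stood at 0.155 in the mock and 1.18 in the ligated cells of cluster 7 (2.32). Gsn, at -1.40 in the fibroblasts, stood at 0.203 and 0.644 in endothelial-like cluster 0 (1.30). In cluster 4 it stood at 0.223 and 0.650 (1.22), in cluster 7 at 1.20 and 2.80 (1.15) and in cluster 10 at 0.177 and 1.45 (2.48). In these clusters the Gsn levels were far below the 197 and 74.7 of the fibroblasts. Fibroblasts were also 4.48% of the mock and 10.1% of the ligated cells, and the part of free fibroblast RNA was not tested.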

How the results depend on the processing

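The count of 296 genes past the rule (124 higher and 172 lower) moved by over 1.5 times under 4 cutoffs: 74 at a pseudocount of 1 (30 and 44), 100 at a level of at least 2 (31 and 69), 502 with no minimum level (248 and 254) and 81 at a difference of at least 2 (49 and 32). It was 360 at a pseudocount of 0.01 (146 and 214), 368 with all symbols as deposited (168 and 200), 292 without joining symbols (120 and 172), 286 after centring (138 and 148), 285 after subtraction of the mean profile (94 and 191), 299 in the subset cluster (129 and 170) and 256 without genes that share exons (99 and 157). Of the genes named that passed the rule, Pi16 alone turned direction under these alternatives, to 0.20 in the subset cluster. List medians near 0 changed sign under some alternative for TGF-beta and BMP, cell cycle, collagen processing, complement, other collagens, parenchymal fibroblast and proteoglycan genes. The shares of cells were equal under both ways of finding the weights. No paired analysis was possible because each condition has 1 library. Depth limits the mock cells most: 188 cells leave a level of 3 UMIs at 0.0124.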

Other observations

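Some genes outside the lists, chosen after their values were seen, also passed the rule in fibroblasts and in neither direction in any of the 8 other clusters compared. A gene under 0.5 in both libraries of a cluster could not pass there. Higher in the ligated cells were Itgbl1 (1.29 and 4.75), the ion transport regulator Fxyd6 (0.922 and 4.57), the Wnt inhibitor Nkd2 (0.284 and 1.42), the thrombin receptor F2r (0.325 and 1.43), Lrrc32, which anchors latent TGF-beta at the cell surface (0.326 and 1.28), and the mechanically gated channel Piezo2 (0.315 and 1.05). Lower were the neurotrophin receptor Ntrk2 (3.15 and 0.670), the collagen receptor Ddr2 (2.66 and 1.11), Cyp26b1, which breaks down retinoic acid (0.717 and 0.262), and Scd1, which desaturates fatty acids (2.20 and 0.846). With a pseudocount of 1 only Itgbl1, Fxyd6 and Ntrk2 of these still reached a difference of 1.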
